A study of Mus musculus with 14 samples.

Results

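The regions described here were m6A peaks that were called in METTL14 R255K mouse embryonic stem cells (mESCs) and had no counterpart in wild-type (WT) cells. Members were chosen by the called positions of peaks alone, as any peak of the R255K list that shared no base with a peak of the WT list. There were 1250 such peaks among the 9437 peaks of the R255K list (13.2%, 95% Wilson interval 12.6 to 13.9), and they are called R255K-only peaks. The other 8187 R255K peaks overlapped a WT peak by at least 1 bp and are called shared peaks. The WT list held 17693 peaks.

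E14Tg2a mESCs were WT or METTL14 R255K, in which 1 arginine of METTL14 is replaced by lysine. The mutant was made with CRISPR-Cas9 and grown from a single colony, so a property of that clone cannot be told apart from the substitution. Untreated cells of both genotypes were used for MeRIP-seq, which sequences RNA fragments bound by an anti-m6A antibody, with 2 IP and 2 input libraries per genotype, and each genotype had 1 peak list. Polyadenylated RNA was sequenced in a second experiment after 0, 4 or 8 h in actinomycin D (5 µg/ml), which blocks transcription, with 1 library per genotype and time. Because each genotype had 1 peak list and 1 RNA library per time, no comparison could be tested over replicates, and the intervals given cover counting error only. The RNA libraries held between 13812160 and 18813640 counts assigned to genes, and the sequencing depth of the MeRIP libraries is unknown. All 10 stem cell markers examined exceeded 1 FPKM in all 6 RNA libraries. FPKM are counts scaled to the exon length of a gene and to the total of its library. These markers summed to 2796 FPKM in WT and 2037 FPKM in R255K at 0 h. Of 8 primitive endoderm markers, 6 reached 1 FPKM in WT and 5 in R255K at 0 h. Their sums were 47.9 and 39.2 FPKM. Markers of 2-cell-like cells were listed at 0 in the WT library at 0 h, while 7 of 8 had counts in the R255K library, with a summed level of 5.18 FPKM, and their part in the results was not tested. The codon change itself cannot be seen in gene counts. Mettl14 RNA measured 5.27 FPKM in WT and 2.58 FPKM in R255K at 0 h.

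METTL14 is the RNA-binding partner of METTL3, the catalytic subunit that writes m6A on mRNA. The enzyme favours an A within a short sequence whose commonest form is GGAC, and m6A is found mainly near stop codons, in 3′UTRs and in long exons, where it generally shortens the life of a transcript. Capped transcripts can also carry m6Am, a methylated A at the base next to the cap, which PCIF1 writes. Antibodies to m6A also bind m6Am, and a peak list does not tell the marks apart.

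Short stretches of some of these peaks are shown first, since the peaks of the single genes named later can be followed from them. They come from the GRCm38 RefSeq genome on the strand of the gene and hold the GGAC that lies nearest to the summit, the highest point of a peak, with GGAC in capitals. The first 4 belong to peaks with a high fold enrichment, the fifth to a peak with a high −log10 q, and the last 5 to genes that had no WT peak and a higher RNA level in R255K at 0 h.

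Fthl17c (chrX:8976486-8976506, minus strand): ggactgtgGGACtgtgttctt
Chst7 (chrX:20097048-20097068, plus strand): agacactgGGACtgatttggt
Usp26 (chrX:51756806-51756826, minus strand): aacctgaaGGACagtatcagg
Mgl2 (chr11:70136947-70136967, plus strand): actggcatGGACatatgctag
Hsp90ab1 (chr17:45571655-45571675, minus strand): agggggagGGACtgtttggaa
H19 (chr7:142577869-142577889, minus strand): tggttacaGGACgtggcggct
2900011O08Rik (chr16:13986760-13986780, plus strand): agacccctGGACctgcccgcg
Gm6166 (chr9:57484039-57484059, plus strand): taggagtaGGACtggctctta
C1ql1 (chr11:102939676-102939696, minus strand): tcatccttGGACtcccctcag
Arrb2 (chr11:70432739-70432759, plus strand): aaaacccgGGACcaggtaagg

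Such a match is a description of the letters and not a mapped site. In windows of 100 bases to each side of the middle of exons of expressed genes, 54.2% held a GGAC.

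The R255K-only peaks gathered near annotated transcript starts, where every annotated transcript of any gene was counted. Some of these starts lie inside longer genes. A Myh9 summit, for example, was 45 bases from a start but in exon 33 of 41. The summit lay within 300 bases of an annotated transcript start in 867 of 1250 R255K-only peaks (69.4%, 66.7 to 71.9), and these are said to lie near a start. The same was true of 16.3% of shared peaks (15.5 to 17.1) and of 12.5% of all WT peaks (12 to 13). The median R255K-only summit lay 113 bases downstream of the nearest start, with quartiles at 33.3 and 200 bases. The interval from 100 to 150 bases past the start alone held 239 R255K-only summits, or 19.1% of them, against 2.88% of shared summits. The window of 300 bases was chosen after the distances had been seen.

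**Figure D1:**
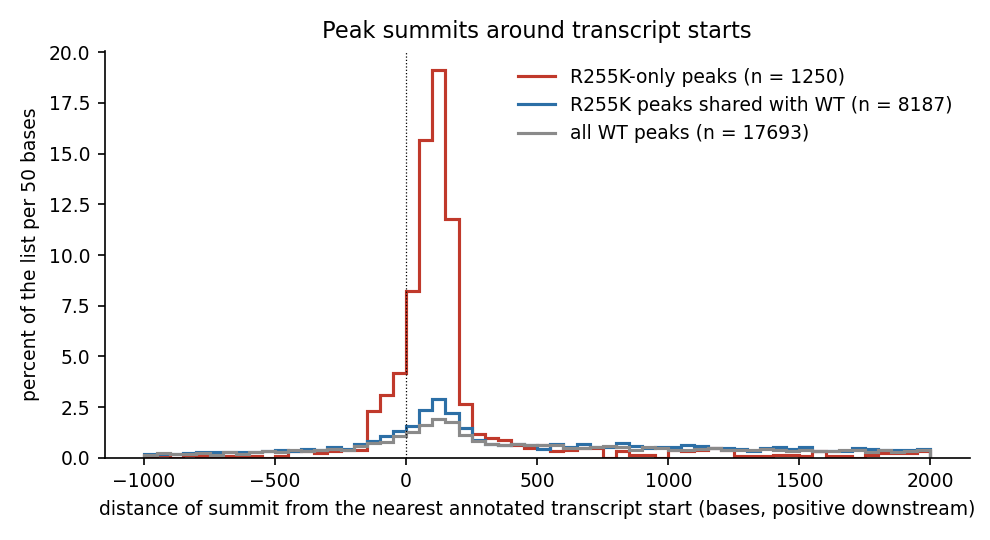
Distance of each peak's summit from the nearest annotated transcript start in bins of 50 bases, as percent of the list, for R255K-only, shared and all WT peaks. The R255K-only line reaches 19.1% between 100 and 150 bases downstream, where the shared line is at 2.88%.

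The change in list size with distance showed the same from the other side. Within 300 bases of a start, the WT list held 2206 peaks and the R255K list 2198, a ratio of 0.996. Farther from starts, the WT list held 15468 peaks and the R255K list 7235, a ratio of 0.468. The R255K-only share of R255K peaks was 42.9% (39.7 to 46.1) within 100 bases and 43.8% (40.7 to 46.9) between 100 and 200 bases. It was 17.0% between 200 and 300 bases and 4.70% (4.20 to 5.26) beyond 1000 bases. Peaks were also lost at starts, where 968 of the 2206 WT peaks (43.9%) had no R255K counterpart. Farther from starts this held for 8993 of the 15468 WT peaks (58.1%), so loss was less frequent at starts.

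**Figure D2:**
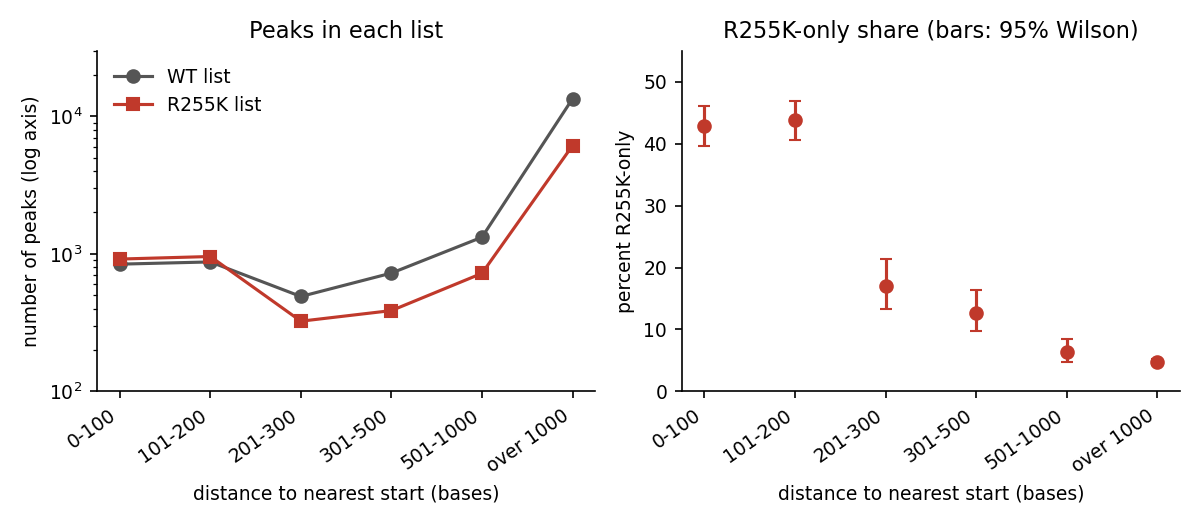
Left, number of peaks in the WT and R255K lists by distance of the summit from the nearest transcript start, on a log axis. Right, percent of R255K peaks that were R255K-only in the same bins, with 95% Wilson intervals, falling from 42.9% within 100 bases to 4.70% beyond 1000 bases.

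The annotation at the summits shifted accordingly. Of the 1250 R255K-only summits, 318 lay in a 5′UTR (25.4%, 23.1 to 27.9), against 6.66% of shared summits and 4.69% of WT summits. Coding sequence held 477 of them (38.2%, 35.5 to 40.9), against 51.1% of shared summits. The 3′UTR, which held 30.7% of shared summits, held 67 R255K-only summits (5.36%, 4.24 to 6.75). Introns held 236 (18.9%, 16.8 to 21.1), against 3.76% of shared summits, and 155 of these intronic summits lay within 300 bases of a start. Of the coding summits 316 of 477 (66.2%) lay that close to a start, while 14.9% of shared coding summits did. The remaining members had their summit in another exon (103) or between genes (49).

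**Figure D3:**
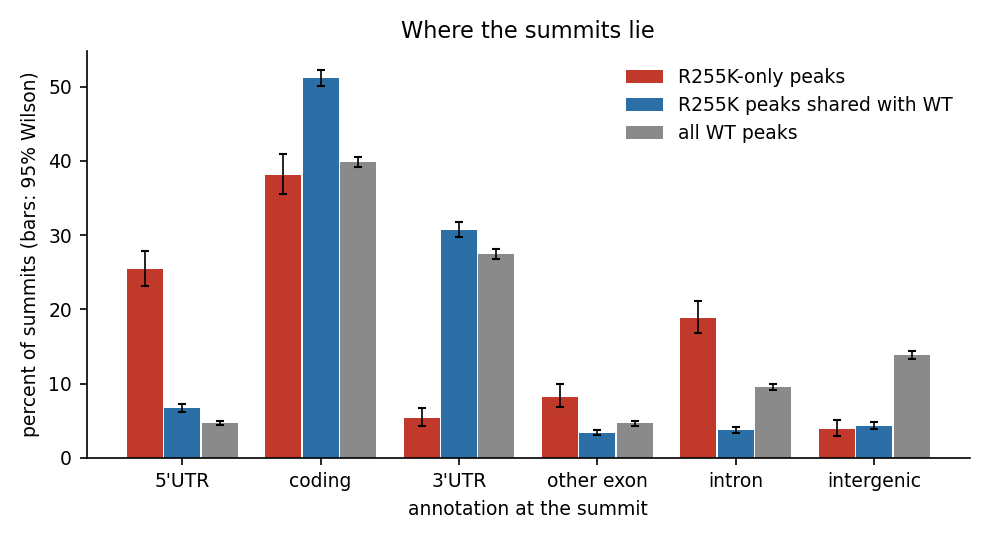
Percent of summits by annotation for R255K-only, shared and all WT peaks, with 95% Wilson intervals as bars. R255K-only summits exceed shared summits in the 5′UTR (25.4% against 6.66%) and in introns (18.9% against 3.76%), and are fewer in the 3′UTR (5.36% against 30.7%).

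To place summits along mRNAs, a single protein-coding transcript per gene was used, and 789 R255K-only summits lay on its exons. Of these, 472 (59.8%, 56.4 to 63.2) were in the first of several exons and 12.8% in the last, whereas 58.7% of shared summits were in the last exon. A summit within 100 bases of the start codon was found for 375 (47.5%, 44.1 to 51.0), against 5.50% of shared summits. Near the stop codon, within 200 bases, the shares were 9.76% (7.88 to 12) and 30.0%. The exon that held the summit had a median length of 293 bases for R255K-only and 1614 bases for shared peaks. The median position was base 199 of the transcript for R255K-only summits and base 1547 for shared summits. For 400 R255K-only summits the transcript also carried a WT summit, and 325 of the 400 (81.2%, 77.1 to 84.8) lay upstream of all WT summits on it, at a median distance of 926 bases from the nearest.

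R255K-only peaks were weaker and narrower than shared peaks. These values come from the same peak call as the rule and are given as a description. Their median fold enrichment was 3.91 (quartiles 2.67 and 5.61), against 5.94 for shared peaks, and their median −log10 q was 8.69 against 19.7. Their median width was 228 bp against 361 bp. Among peaks near starts, the R255K-only median of 3.79 remained below the 5.08 of shared peaks. The nearest WT peak was a median of 13059.5 bp away, and 95 members (7.60%) had a WT peak within 500 bp. At the edge of the rule, the member closest to a WT peak lay in Peg13, 30 bp from it, with a fold enrichment of 6.59. The shared peak with the least overlap lay in the 5′UTR of Rassf10, shared 5 bp with a WT peak and had a fold enrichment of 6.88.

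The windows around R255K-only summits held fewer m6A-type motifs than those around shared summits. The windows are unspliced stretches of genome, so they can hold bases outside the exon. The exon at the summit was shorter for R255K-only peaks (median 293 against 1614 bases on the chosen transcripts). The part of bases outside exons in these shares was not tested. On the gene strand, GGAC occurred within 100 bases of 688 of 957 R255K-only summits that lay in an exon (71.9%, 69.0 to 74.6), against 83.6% (82.8 to 84.4) of shared summits. A wider motif, which lets either G be an A and asks for A, C or T after the C, was present in 85% (82.5 to 87.1) and 98.2% (97.9 to 98.5) respectively. Near starts it was present at 82.3% of R255K-only summits, at 93.6% of shared summits and in 82.2% of the start regions of expressed genes. Near starts, GGAC occurred at 70.4% (66.9 to 73.7) of R255K-only and 83.0% (80.7 to 85) of shared summits. The same distance past the start of all expressed genes, 100 bases, gave 65.7% (64.8 to 66.6). With a narrower reach of 25 bases, the corresponding shares were 26.7% (23.6 to 30.1), 42.3% (39.6 to 45.1) and 23.8% (23 to 24.6). The R255K-only summits near starts thus stood closer to start regions in general than to shared summits. The mean number of GGAC per window was 1.23 at R255K-only and 1.78 at shared summits near starts. In start regions it was 1.10 for all expressed genes and 0.998 for the highest of 10 groups by expression level. Away from starts, GGAC lay within 100 bases of 75.9% (70.3 to 80.7) of R255K-only summits.

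The 383 R255K-only peaks away from starts were spread more evenly along transcripts. Of them 42.0% lay in coding sequence, 17.0% in 3′UTRs, 21.1% in introns and 9.66% between genes. Of the 232 on the chosen transcripts, 99 (42.7%) were in the last exon and 98 in an internal one. Their median −log10 q was 6.73 beside 9.64 for members near starts, and their median fold enrichment was 4.40 beside 3.79.

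Base composition moved with position. The median GC content of the same windows of 100 bases to each side was 64.7% for R255K-only and 54.2% for shared summits. Near starts it was 68.2% for R255K-only summits, 64.4% for shared summits and 66.7% for the start regions of all expressed genes. Away from starts both lists had a median of 53.7%. The annotated first base of the transcript chosen for each gene was also read, since m6Am requires an A there. It was an A for 23.6% (20.8 to 26.7) of genes with an R255K-only peak near a start. Among other genes with a shared peak near a start, it was an A for 25.3% (22.9 to 27.9). It was an A for 24.6% (23.8 to 25.5) of expressed genes, so the 3 intervals overlapped. The annotated base need not belong to the start nearest to a peak, and it need not be the one used in these cells. The part of GC content and of m6Am in the R255K-only list was not tested.

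R255K-only peaks were spread over the genome. They made up between 10.2% of the R255K peaks of chromosome 14 and 16.7% of those of chromosome 16 among the numbered chromosomes and X. Chromosome 11 had 134 of its 856 R255K peaks in the list (15.7%, 13.4 to 18.2) and X 33 of 204 (16.2%, 11.8 to 21.8), both beside the 13.2% over all chromosomes. Of the exonic members, 10.8% (9.14 to 12.7) were on chromosome 11, against 9.10% of exonic shared peaks and 8.11% of exonic WT peaks.

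Exons of annotated genes were touched by 1158 R255K-only peaks (92.6%, 91.1 to 94.0). Of these, 1067 touched exons of 1 gene and 91 exons of 2 or more genes, where the source of the signal cannot be assigned, since the peaks carry no strand. In all, 1172 genes had an R255K-only peak on an exon, and 1099 of them had exactly 1. A WT peak elsewhere on their exons was present in 604 genes (51.5%, 48.7 to 54.4), and 568 genes had none. Among genes with a mean of at least 1 FPKM at 0 h, 546 of 957 with an R255K-only peak had a WT peak. The same held for 6807 of all 11869 genes at that level (57.4%), so the share was near the background. A shared R255K peak was also present in 454 of the 1172 genes. Among the 604 genes with a WT peak, 150 (24.8%) had lost all their WT peaks in the R255K list. Of the genes without an R255K-only peak, 5343 had a shared peak and 3309 had WT peaks but no R255K peak. The 604 genes all had an R255K peak by the rule, and the 3309 had none by definition. These counts therefore do not compare the loss of WT peaks between like genes. The share with a WT peak was 51.1% for genes of peaks near a start and 52.3% for genes of the other members.

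Genes with R255K-only peaks were highly expressed. Of the 1172 genes, 957 passed the filter of a mean of 1 FPKM at 0 h, out of 11869 genes that passed it in all (8.06%). Their median level was 24.6 FPKM in WT and 25.9 FPKM in R255K, against 8.20 and 7.96 FPKM over all 11869 genes. The 411 without a WT peak were at 37.5 and 40.1 FPKM and had a median exon length of 2900 bp, against 3738 bp over all. When the 11869 genes were put into 10 groups of about equal size by level, the share with an R255K-only peak went from 1.52% (0.961 to 2.38) in the lowest to 22.8% (20.6 to 25.3) in the highest. The share with a shared R255K peak went from 26.9% to 45.6% in the sixth group and was 33.9% in the highest. A transcript with more reads gives a peak caller more power, and the part of level in these shares was not tested. Of the 1172 genes, 188 were under 1 FPKM in both genotypes. Over all genes low levels were far more common, since 11869 of 52459 passed the filter.

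**Figure D4:**
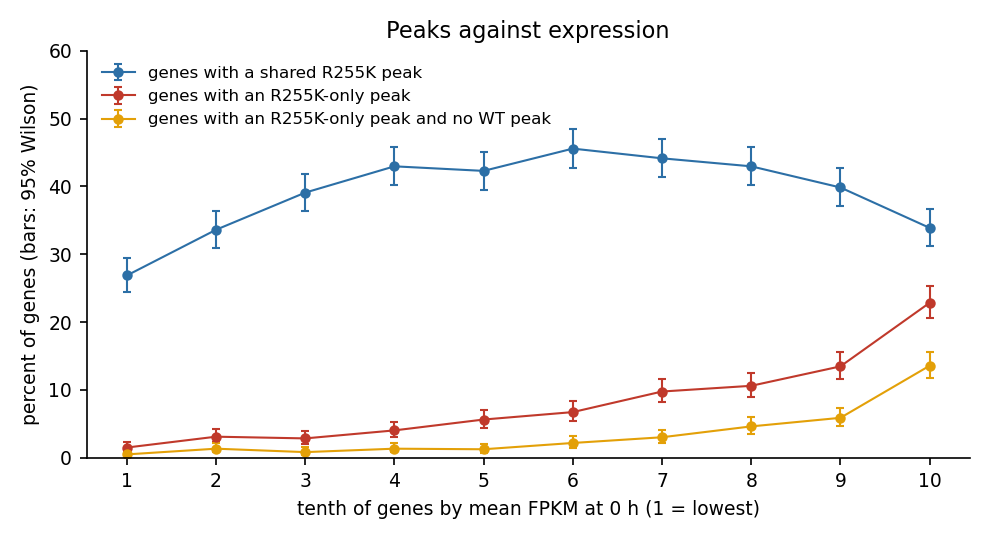
Percent of genes with a shared R255K peak, with an R255K-only peak, and with an R255K-only peak and no WT peak, in 10 groups of genes by mean FPKM at 0 h, with 95% Wilson intervals. The R255K-only share goes from 1.52% in the lowest group to 22.8% in the highest, while the shared curve turns down after the sixth group.

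Median steady-state RNA levels of these genes differed little between the genotypes. On the log2(FPKM + 1) scale, which understates changes of low genes, the median difference of R255K from WT at 0 h was 0.12 for the 957 genes (quartiles −0.30 and 0.42) and 0.05 for all 11869. A level at least 2-fold higher in R255K was seen for 56 genes (5.85%, 4.53 to 7.52), beside 6.44% of all genes. A level at least 2-fold lower was seen for 48 (5.02%, 3.80 to 6.59), beside 5.92% of all genes. Both shares were near the background of all genes. The sign of the median depended on scaling, since it was −0.01 with DESeq2 size factors, which moved the median of all genes to −0.07. Without chromosome 11 the median was 0.08 for genes with an R255K-only peak and 0.01 for all genes. Of the 1172 genes, 31 (2.65%) were under 1 FPKM in WT and at least 1 FPKM in R255K, beside 1.89% of all genes, which lay within the interval (1.87 to 3.73).

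**Figure D5:**
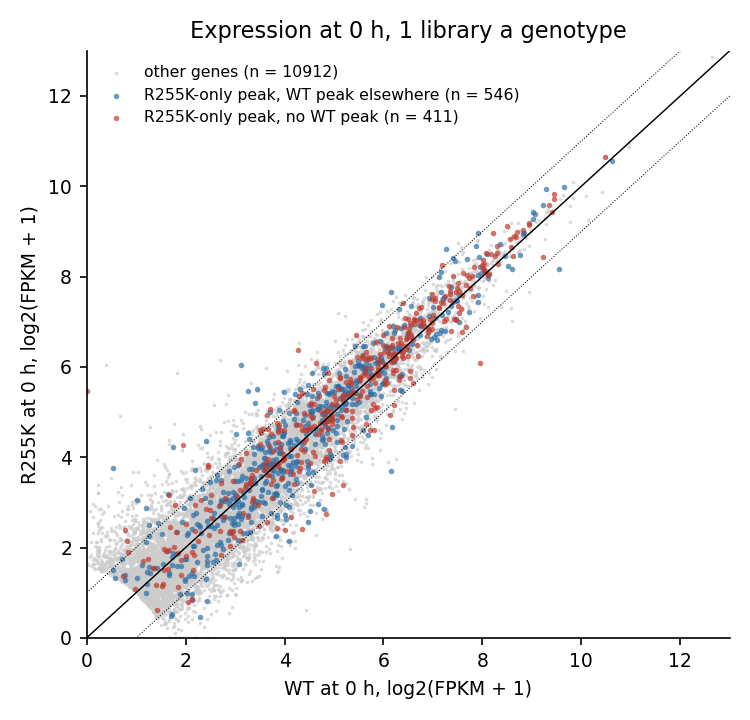
Level of each gene that passed the filter in R255K against WT at 0 h, as log2(FPKM + 1), with the identity line and dotted lines at 2-fold. Genes with an R255K-only peak, with (546) or without (411) a WT peak elsewhere, lie along the identity line among the other genes, and 56 of the 957 are at least 2-fold higher in R255K.

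After transcription was blocked, the genes without a WT peak stood apart from those with one. Values after the block are relative, because counts are scaled to each library's total. From 0 to 8 h the median log2 change in WT was 0.55 for the 411 genes without a WT peak, −0.83 for the 546 genes with one and −0.47 for all genes. In R255K the corresponding medians were 0.20, −0.20 and −0.10. In WT, genes with no peak in either list had a median change of 0.15. Genes with a shared but no R255K-only peak were at −1.27, and genes with WT peaks and no R255K peak at −0.62. The contrast by WT peak was thus also present among genes without an R255K-only peak. At 4 h, R255K was at least 2-fold higher for 85 of the 957 genes (8.88%), beside 10.8% of all genes, and at least 2-fold lower for 25 (2.61%), beside 2.16%. At 8 h, R255K was at least 2-fold higher than WT for 147 of the 546 genes (26.9%, 23.4 to 30.8) and for 22 of the 411 (5.35%, 3.56 to 7.97), beside 19.0% of all genes. It was at least 2-fold lower for 27 of the 411 (6.57%, 4.55 to 9.39) and 7 of the 546 (1.28%), beside 2.46% of all genes. The median R255K minus WT difference at 8 h was −0.20 without a WT peak and 0.52 with one. It was 0.63 for genes with a shared but no R255K-only peak, 0.42 for genes with WT peaks and no R255K peak and 0.02 for genes with neither. The 0.52 thus lay between the values of the other genes with a WT peak.

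Several families of abundant mRNAs were among the genes with an R255K-only peak. Of 87 genes named Rpl or Rps that passed the filter, 22 (25.3%, 17.3 to 35.3) had an R255K-only peak, beside 8.06% of all genes, and 19 of the 22 had no WT peak. A WT peak was present on 14 of the 87 genes (16.1%), so most of the family lacked one. The median level of the 87 genes was 269 FPKM, within the highest of the 10 expression groups, where 22.8% of genes (20.6 to 25.3) had such a peak, so their share was near that of genes of like level. Their 23 peaks had fold enrichments from 1.45 to 4.95, and 19 lay near a start. Ribosomal proteins are made from short and abundant mRNAs, and their pseudogenes can share reads with them. Rpl8, a protein of the large subunit, had a peak at chr15:76904376-76904869 whose summit was 191 bases from a start and enriched 2.62-fold. Its level was 1431, 1957 and 2289 FPKM in WT at 0, 4 and 8 h and 1605, 1583 and 1778 FPKM in R255K, so the level at 8 h stood further above that at 0 h in WT than in R255K. Rps15, of the small subunit, had 2 R255K-only peaks, 1 at its start and 1 in coding sequence, with fold enrichments of 4.22 and 2.11. Of the 22 genes, 20 had a higher level in R255K at 0 h by any amount (median log2 difference 0.25), beside 53.5% of all genes, and 16 did with DESeq2 size factors (median 0.11). The median over all 87 genes of the family was 0.18 and that over all genes 0.05.

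Nuclear genes of the respiratory chain and ATP synthase were at a median of 66.9 FPKM, also within the highest expression group. Of 84 genes named Ndu, Uqcr, Cox or Atp5 past the filter, 19 (22.6%, 15.0 to 32.6) had an R255K-only peak, beside 8.06% of all genes and 22.8% of that group. Of the 19, 18 had no WT peak, and all 19 peaks lay near a start. A WT peak was present on 11 of the 84 genes (13.1%), so most of this family lacked one too. Atp5sl, one of the 19, is named for its likeness to an ATP synthase subunit. This family and the 2 that follow were added after the members had been seen. Atp5g3, a subunit of the ATP synthase ring, had a peak at chr2:73910840-73911278 enriched 8.86-fold, and no member that touched 1 gene had a higher −log10 q (62.8). The nearest WT peak was 590129 bp away. Its level went from 138 FPKM at 0 h to 205 and 253 FPKM in WT, and from 160 FPKM to 172 and 194 FPKM in R255K. Cox6a1, of cytochrome c oxidase, had a peak with a fold enrichment of 5.27, and its level was 262 and 280 FPKM in WT and R255K at 0 h. Among Psm genes, which mostly encode proteasome subunits, 7 of 47 had a member (14.9%, 7.41 to 27.7), and among Eif genes, mostly translation initiation factors, 7 of 52 (13.5%, 6.68 to 25.3). Both intervals included the 8.06% of all genes. The median levels of these 2 families, 69.8 and 60.6 FPKM, lay within the highest expression group. Both intervals also included the 22.8% of that group.

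Of 69 genes named Hist, 26 had an R255K-only peak, beside 1172 of all 52459 genes in the table. None of the 26 had a WT peak, beside 48.5% without one among all 1172 genes. Their fold enrichments were low, between 1.64 and 3.70. Replication-dependent histone mRNAs end in a stem-loop without a poly(A) tail, so the polyadenylated libraries measure them poorly, and 22 of the 69 passed the filter, of which 9 had an R255K-only peak (40.9%, 23.3 to 61.3, beside 8.06%). MeRIP-seq started from total RNA. The genes lie in clusters of near-identical copies on chromosomes 13 and 3, so which copy a peak belongs to is uncertain. Hist1h4i, a histone H4 gene, had a peak at chr13:22041105-22041319 with a fold enrichment of 1.76, and its level was 4.50 FPKM in WT and 12.8 FPKM in R255K at 0 h (ratio 2.83, counting interval 2.07 to 3.92). Hist1h2bj, a histone H2B gene, was at 3.35 and 0.828 FPKM (ratio 0.248, 0.0836 to 0.612), so members of the group differed in direction.

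In 4 other families the shares were as follows, beside 8.06% of all genes. Of 279 Zfp genes past the filter, which mostly encode zinc finger transcription factors, 14 (5.02%, 3.01 to 8.25) had an R255K-only peak. Each of these also had a WT peak, as did 258 of the 279 (92.5%). Among Usp genes, which encode deubiquitinating enzymes, 2 of 44 had an R255K-only peak. Among Slc genes, which encode membrane transporters, it was 13 of 173 (7.51%, 4.44 to 12.4). Among collagen-named genes past the filter 1 of 7 had a member, and that gene, Col4a3bp, encodes a ceramide transfer protein. No R255K-only peak lay on 21 genes of m6A writers, readers and erasers, on 7 germ layer genes past the filter, or on the 7 genes singled out by the study for their peaks or decay (Nedd4, Zfp36l1, Gas2l3, Trim71, Klf4, Smad6 and Smad7). The intervals of these 3 shares reached up to 15.5%, 35.4% and 35.4%, so each included the 8.06% of all genes.

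Of 19 pluripotency genes, 4 had an R255K-only peak (21.1%, 8.51 to 43.3, beside 8.06% of all genes). Each of the 4 also had a WT peak elsewhere, and 17 of the 19 (89.5%) had a WT peak. The median level of the 19 was 127 FPKM, within the highest expression group, where 22.8% of genes had an R255K-only peak. The share of 21.1% was thus near that of genes of like level. All 4 were lower in R255K than WT at 0 h, although for Dppa4 the counting interval of the ratio (0.972, 0.920 to 1.03) included equality. The whole list was lower, with a median log2 difference of −0.33 over the 19 genes, 6 of them at least 2-fold lower and 1 at least 2-fold higher. Zfp42, also known as Rex1, a marker of naive cells, had a peak in its 5′UTR at chr8:43306697-43306999 with a fold enrichment of 4.81, 10130 bp from the nearest WT peak. Its level was 430, 57.2 and 24.6 FPKM in WT at 0, 4 and 8 h and 353, 155 and 75.2 FPKM in R255K. WT was thus higher before the block and lower after it. Tbx3, a transcription factor of naive cells, had a coding peak of 2.24-fold enrichment and measured 27 FPKM in WT and 6.18 FPKM in R255K at 0 h. Nr5a2, a nuclear receptor, had a peak of 9.04-fold enrichment with its summit in an intron. Dppa4, a stem cell chromatin protein, had a peak 78 bases from a start, with 106 and 103 FPKM at 0 h. In the other lists, Etv5 (1 of 11 formative genes), Ski and Smad4 (2 of 19 genes of TGF-β and Nodal signalling), Cnot3 and Btg1 (2 of 15 genes of the CCR4-NOT deadenylase and its partners), Chd4 (1 of 19 histone methyltransferases and remodellers) and Prmt1 (1 of 8 arginine methyltransferases) had members. Prmt1, the main arginine methyltransferase of mammalian cells, had no WT peak. Its R255K-only peak lay 73 bases from a start with a fold enrichment of 3.23, and it was at 150 FPKM in WT and 189 FPKM in R255K at 0 h.

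Among members with a high fold enrichment were genes of the X chromosome with little RNA in WT cells. Usp26, a deubiquitinase gene known from the testis, had a peak over its coding exon at chrX:51756671-51757289 with a fold enrichment of 10.9, 319729 bp from the nearest WT peak. Its level was 0.0694, 0.0484 and 0.0175 FPKM in WT at 0, 4 and 8 h and 1.78, 4.41 and 3.0 FPKM in R255K. At 0 h, 5 reads in WT stood against 115 in R255K (ratio 25.6, counting interval 10.7 to 80.4). Chst7, a sulfotransferase gene, had 2 R255K-only peaks besides 2 shared ones and counted 5 reads in WT and 52 in R255K at 0 h (ratio 11.6, 4.66 to 37.2). Fthl17c, of a ferritin-like family, had a 5′UTR peak of 16.0-fold and a coding peak of 7.08-fold enrichment, and had 0 reads in WT and 8 in R255K. Set against a floor of 3 counts in the WT library, that is 2.97-fold higher. This value leaves out the counting error of the 8 reads, so it is not a lower bound. Rhox2a, a homeobox gene of the reproductive cluster, had a peak of 18.2-fold enrichment, with 0 reads in WT and 6 in R255K. Against the same floor that is 2.23-fold higher, again without the counting error of the R255K reads. Fthl17 and Rhox2 genes have near-identical neighbours, so their counts and peaks are uncertain. The peaks of Usp26 and Adrb3 had the same fold enrichment and the same −log10 q (18.4). How many MeRIP reads stood behind the fold enrichments of these genes is not known.

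Gm15564, a predicted gene on chromosome 16, carried the peak with the highest fold enrichment, 20.1, which touched its exons over 21.3% of the peak. Most of the other high members lay close to a start. Peaks of Nde1 (14.9-fold, a dynein regulator), Sri (13.2-fold, the calcium-binding protein sorcin), Oser1 (12.7-fold), Oat (12.4-fold, ornithine aminotransferase) and Slc36a1 (12-fold, an amino acid transporter) had summits within 196 bases of a start. All 5 summits fell in introns of the annotation. Oat was higher in R255K at each time, at 22.4, 35.1 and 48.4 FPKM in WT and 57.7, 71.5 and 81.9 FPKM in R255K. The peak of Adrb3 (10.9-fold) touched its exon over 4.46% of the peak, and that of Mgl2 (10.8-fold) lay on a gene with 1 read in WT and 6 in R255K (ratio 6.69, 0.811 to 308). Outside exons, the member with the highest fold enrichment lay at chr15:83199698-83200029 (19.1-fold), between genes and 25038 bp from the nearest WT peak.

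Among genes without a WT peak that passed the filter, H19 differed most between the genotypes. H19, an imprinted long noncoding RNA expressed from the maternal allele, had 0 reads in all WT libraries and 43.2, 40.5 and 51.8 FPKM in R255K at 0, 4 and 8 h. At 0 h it counted 1603 reads in R255K, at least 595-fold higher against the floor of 3 counts in WT. Its R255K-only peak lay at chr7:142577771-142578092, 5 bases from a start, with a fold enrichment of 3.51. Peaks of H19, Snrpn, Spp1 and 2900011O08Rik also touched an exon of an overlapping gene, such as Snurf in the case of Snrpn. Snrpn, an imprinted gene expressed from the paternal allele, was at 23.8 and 67.2 FPKM in WT and R255K at 0 h (ratio 2.82, 2.61 to 3.05). The others among the 8 genes with the highest ratio were 2900011O08Rik, Gm6166, Slc4a5, C1ql1, Arrb2 and Pla2g10, with ratios from 2.71 for Arrb2, a regulator of receptor signalling, to 6.39 for 2900011O08Rik. At the other end, Spp1, the secreted protein osteopontin, was at 245 FPKM in WT and 67.4 FPKM in R255K (ratio 0.275, 0.261 to 0.290), and its start carried a peak in the R255K list with a fold enrichment of 7.64. Lrrc34, Hmgn2 and Stmn3 were likewise lower in R255K, with ratios of 0.207, 0.222 and 0.271. Thus R255K-only peaks occurred on genes whose RNA was several fold higher, several fold lower or close to equal in R255K.

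The 8 genes Rbm25, Myh9, Krt8, Srrm1, Itpkc, Snrpd2, Chd4 and Nars carried 3 or 4 R255K-only peaks each. Myh9, a non-muscle myosin heavy chain, had 4 weak ones with fold enrichments from 1.78 to 2.55, all over coding exons, between 530 and 2518 bp from a WT peak. Rbm25, a splicing factor, also had 4, from 3.03 to 3.76-fold. Snrpd2, a core spliceosome protein, had 3 and no WT peak, of which the one at its start (6.41-fold) exceeded those in exons 2 and 3 of 3 (1.73 and 1.68-fold). Krt8, an epithelial keratin, had 3 between 1.67 and 2.13-fold, and its level was 9.60 FPKM in WT and 35.7 FPKM in R255K at 0 h (ratio 3.72, 3.26 to 4.24). Of 7 trophoblast markers, 5 had a count in WT and 7 in R255K at 0 h. They summed to 6.16 and 17.3 FPKM, and Elf5 and Krt7 were at 0 in WT. Their part in the Krt8 level was not tested. Actg1, cytoplasmic gamma-actin, had 2 R255K-only peaks of 3.53 and 3.04-fold, no WT peak, and 360 and 551 FPKM at 0 h. Hsp90ab1, a chaperone, had 2 beside 3 shared ones, and the strongest of its 5 R255K peaks, of 3.93-fold enrichment, was the R255K-only peak nearest its 5′ end, 546 bp from the nearest WT peak. Vdac2, a channel of the outer mitochondrial membrane, and Fth1, the ferritin heavy chain, each had 1 R255K-only peak near a start and no WT peak, at 7.10 and 2.69-fold enrichment. Fth1 went from 649 to 1273 FPKM in WT and from 767 to 935 FPKM in R255K between 0 and 8 h.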

How the data were processed

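MeRIP-seq and RNA-seq of WT and METTL14 R255K mESCs comprised 14 libraries (8 MeRIP, 6 RNA). The authors removed rRNA reads with Bowtie2 2.2.6, used HISAT2 for alignment against mm10, and filtered for uniquely mapped reads (Picard 2.16.0, SAMtools 0.1.09). Peaks were called by the authors with MACS2 from IP and input libraries, and the deposited lists give fold enrichment at the summit (a ratio), −log10 q and a score derived from it by MACS2. How libraries of a genotype were combined and the q threshold are not given in the sources used here. The deposited counts are whole reads per gene without normalization. The counting tool, its annotation and use of strand are not given either.

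Peak lists were overlapped with bedtools 2.31.1 and summits placed on GENCODE vM21 (classes in the order coding, 3′UTR, 5′UTR, other exon, intron, intergenic). FPKM was computed from counts, exon length and summed counts, and ratios used a pseudocount of 1 and genes with a mean of at least 1 FPKM at 0 h. Shares have 95% Wilson intervals, and ratios of single genes have exact binomial counting intervals. Named genes were taken from the 12 members with the highest fold enrichment and 5 with the highest −log10 q touching 1 gene, genes with 3 or more members, the 8 highest and 4 lowest 0 h ratios and the 5 highest levels without a WT peak, and every listed or family gene with a member. Alternative scalings used edgeR 4.0.16 (TMM) and DESeq2 1.42.0 (size factors only), and GC trends a lowess span of 0.3. The overlap and ratio steps were tested on simulated data. The members and lists were chosen with earlier results of these data known.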

Additional observations from a re-analysis of the deposited data

How the results depend on the processing

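No paired analysis was possible because each genotype had 1 peak list and 1 RNA library per time, and for the same reason no replicate could be left out. Of 38 alternative values over 13 results, 20 stayed within the spread of the reported value, 16 moved and 2 changed sign. A minimum fold enrichment of 4 left 611 R255K-only peaks, and a minimum −log10 q of 5 lowered the coding share of summits to 34.7%. Exons held 76.6% when the summit itself had to lie in one. The median log2 difference at 0 h was 0.0380 with TMM factors, −0.0129 with DESeq2 size factors, −0.0091 after removal of a GC trend and 0.0753 without chromosome 11, beside all-gene medians of −0.03, −0.07, 0.00 and 0.01. The share of genes at least 2-fold higher was 4.49%, 4.08%, 3.55% and 4.12% in that order. GGAC lay within 50 bases of 50.8% of summits, and on either strand within 100 bases of 88.2%. The start share, with alternatives chosen after seeing the data, was 31.4%, 65.0% and 73.3% for windows of 100, 200 and 500 bases (6.40%, 13% and 20.4% of shared peaks), 74.4% at a −log10 q of at least 5 and 64.4% on the chosen transcripts. The cause was not tested. The unknown depth of the MeRIP libraries limits what the absence of a WT peak shows.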
